A study of Mus musculus with 12 samples.

Results

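Regulators of G protein signalling (RGS proteins) were described in mouse embryonic fibroblasts (MEFs) through 9 of their genes, Rgs2, Rgs3, Rgs4, Rgs10, Rgs12, Rgs14, Rgs16, Rgs17 and Rgs19, of 24062 gene rows in the count table. The members were chosen by name with fold changes of these libraries already known. Which values weighed in the choice is not recorded and no threshold was set, so no values just inside or outside one can be given. The fold changes and adjusted p-values of the members are therefore a description of chosen genes and not independent evidence for the family. The MEFs expressed a short hairpin RNA against Renilla luciferase (shRenilla, the control) or against Birc6, the gene of BRUCE (shBruce#1, called shBruce here), and were kept in full medium (FM) or starved without serum and amino acids for 2 h (Starv). Each of the 4 groups had 3 libraries of poly(A) RNA, 12 in all, each line rested on 1 hairpin, and both lines carried a hairpin. The labels do not say whether replicates came from separate cultures, so the p-values measure only the spread between these libraries.

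RGS proteins bind the alpha subunit of a heterotrimeric G protein in its GTP-bound form and speed up GTP hydrolysis, which ends the signal that a G protein-coupled receptor started. Members of the R4 subfamily are small proteins with little beyond the RGS domain, RZ members carry a cysteine-rich stretch that is lipid-modified, and the R12 subfamily holds both the small Rgs10 and the large, multidomain Rgs12 and Rgs14. In fibroblasts, receptors for serum lipids such as lysophosphatidic acid and sphingosine 1-phosphate signal in part through G proteins that these regulators switch off.

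The promoters of the pair of R4 members with the largest fitted changes of opposite direction after starvation, Rgs16 and Rgs2, are shown to place these genes and their start sites. Both come from RefSeq on GRCm38.p6 and cover 250 bases before to 50 bases after the start, read 5′ to 3′ along the gene. Rgs16 lies on the plus strand at chr1:153740103-153740402 and Rgs2 on the minus strand at chr1:144004100-144004399. Capitals mark CCAAT boxes (CCAAT), GC boxes (GGGCGG) and the short form of the cAMP response element (short CRE, TGACG), each on either strand.
Rgs16: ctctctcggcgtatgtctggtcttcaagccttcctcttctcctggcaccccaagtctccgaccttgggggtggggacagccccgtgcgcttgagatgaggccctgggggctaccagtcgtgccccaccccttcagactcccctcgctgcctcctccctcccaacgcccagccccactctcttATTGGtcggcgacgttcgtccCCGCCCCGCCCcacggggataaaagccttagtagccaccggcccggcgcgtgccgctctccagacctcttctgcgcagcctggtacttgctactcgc
Rgs2: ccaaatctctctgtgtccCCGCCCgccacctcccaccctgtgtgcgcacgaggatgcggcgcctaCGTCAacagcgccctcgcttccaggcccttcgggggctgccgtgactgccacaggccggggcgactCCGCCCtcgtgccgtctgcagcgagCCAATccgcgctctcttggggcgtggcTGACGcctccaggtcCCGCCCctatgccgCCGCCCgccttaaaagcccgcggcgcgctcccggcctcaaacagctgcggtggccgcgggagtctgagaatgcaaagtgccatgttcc
The Rgs16 window held 1 CCAAT box 68 bases before the start and 2 GC boxes that share a base, 47 and 42 bases before it. The Rgs2 window held a CCAAT box 94 bases before the start, short CREs 185 and 67 bases before it, and 4 GC boxes. Of 32851 RefSeq promoters of the same length, 37.4% held a CCAAT box, 35.7% a GC box and 20.8% a short CRE. The full CRE (TGACGTCA, in 1.79% of all promoters), the E-box (CACGTG, 7.15%), the ATF4 composite site (TGATGCAA, 0.895%), the FOXO site (TGTTTAC, 3.65%), the AP-1 site (TGANTCA, 7.81%) and the CArG box (1.63%) were searched as well and were not in the letters of either window. The CCAAT and GC boxes were added to the search after the sequences had been read. The tables matched 8 of the 9 members with 12 start sites in all, and no promoter was given for Rgs14. Rgs12 and Rgs3 had 2 start sites each and Rgs19 had 3, which a count per gene cannot separate. Of the other members, the E-box was found at 1 start site of Rgs19 and the AP-1 site at 1 of Rgs12 and at that of Rgs17.

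Total counts per library ranged from 7717265 to 18510540, the lowest in shBruce Starv replicate 1. The shBruce Starv libraries also had the widest spread, with a median SD of log2 values over genes of 0.326, against 0.118 to 0.163 in the other groups. Birc6 had 3273 to 5061 normalized counts in shRenilla FM and 2787 to 4759 in shRenilla Starv, against 1207 to 1390 in shBruce FM and 703 to 1226 in shBruce Starv, so the lines did not overlap in either medium. Its log2 fold change between the lines was -1.75 (adjusted p = 0.0627, edgeR) in FM and -1.98 (adjusted p = 0.0186) in Starv. Of the 10 fibroblast markers, 8 passed the filter on low counts, with summed levels of 8174 to 11895 CPM (counts scaled to a common library total), although Thy1 and Lum were at 0 to 3 counts. The markers of epithelial cells summed to at most 1.80 CPM, those of endothelial cells to 4.39, of muscle to 3.18, of blood cells to 9.75 and of neural cells to 32.2, the last mostly Tubb3. The neural sum differed between groups, at 12.0 to 15.4 in shRenilla FM, 21.4 to 24.3 in shRenilla Starv, 18.4 to 21.7 in shBruce FM and 27.6 to 32.2 in shBruce Starv, and its part in the results below was not tested.

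Of the 9 members, 7 passed the filter on low counts. Rgs4, an inhibitor of Gi and Gq signalling best known from brain and heart, had 0 to 2 counts in each library and 13 in all, and Rgs14, an R12 member with a Ras-binding domain, had 0 to 4 counts and 20 in all. No difference in either was detectable at this depth. Levels between genes were compared per length, as CPM per kb of the longest annotated transcript. In shRenilla FM, Rgs10 stood at 32.4 ± 3.05 (SD, n = 3), Rgs19 at 25.3 ± 1.29, Rgs16 at 17.6 ± 0.870 and Rgs12 at 3.98 ± 0.227, followed by Rgs2 at 1.04 ± 0.0319, Rgs3 at 0.624 ± 0.121 and Rgs17 at 0.295 ± 0.0583. Each gene in this order lay above the next by more than their SDs. In shBruce FM the order held but for Rgs10, at 33.7 ± 2.74, and Rgs19, at 33.3 ± 1.41, and for Rgs2, at 0.788 ± 0.0422, and Rgs3, at 0.685 ± 0.0922, which did not differ beyond their spread.

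After starvation the order changed at Rgs16. In shRenilla Starv it stood at 1.30 ± 0.139 CPM per kb, below Rgs12 at 5.74 ± 0.0132 and level with Rgs2 at 1.29 ± 0.242. In shBruce Starv, Rgs16 at 0.660 ± 0.283 was below Rgs12 at 4.86 ± 0.983 and within the spread of Rgs2 at 1.59 ± 0.825, Rgs3 at 0.432 ± 0.117 and Rgs17 at 0.426 ± 0.0754. Over all RGS family genes in the table, Rgs16 made up 21.3% ± 0.907 of the summed level in shRenilla FM and 2.26% ± 0.220 in shRenilla Starv, and 17.1% ± 3.75 in shBruce FM and 0.889% ± 0.455 in shBruce Starv. Rgs10 made up 39.0% ± 2.06 of the sum in shRenilla FM and 51.6% ± 2.61 in shRenilla Starv, and in shBruce 37.6% ± 0.628 in FM and 58.5% ± 1.49 in Starv. The level of Rgs10 itself did not rise in shRenilla, at 32.4 ± 3.05 CPM per kb in FM and 29.7 ± 2.23 in Starv. In shBruce that level was 33.7 ± 2.74 in FM and 46.0 ± 10.45 in Starv. Without Rgs16 the sum was 65.2 ± 3.97 CPM per kb in shRenilla FM and 56.3 ± 4.31 in shRenilla Starv, and in shBruce it was 74.2 ± 1.63 in FM and 77.8 ± 16.2 in Starv. These are shares of RNA, and in these bulk samples fewer cells that express a gene and less RNA of it per cell cannot be told apart.

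**Figure D1:**
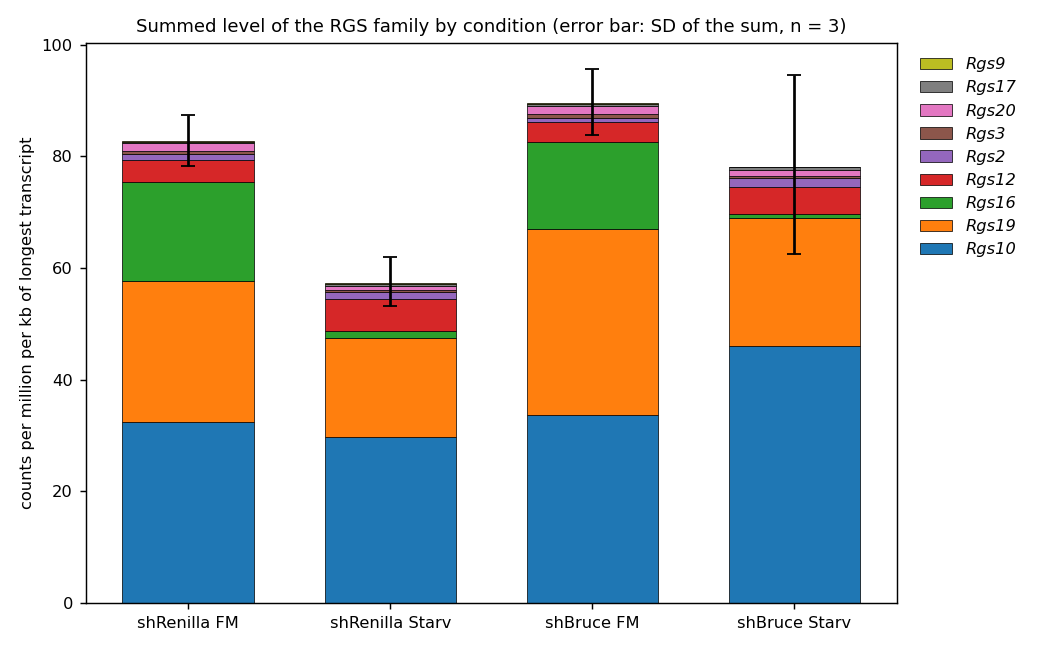
Stacked bars give the mean level per length (CPM per kb of longest transcript) of the 9 RGS genes that passed the filter, in each of the 4 groups, and error bars the SD of the sum over all RGS genes (n = 3). Rgs10 and Rgs19 make up most of each bar, and the Rgs16 segment, at 17.6 and 15.5 in the FM groups, is thin in both Starv groups, at 1.30 and 0.660.

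The first question was which members changed during 2 h of starvation. In shRenilla MEFs, Rgs16 fell and Rgs12 rose, 2 of the 9 members, at an adjusted p under 0.05 (edgeR). Over all genes tested in this comparison, 9.69% were called higher and 7.27% lower. Of the 9 members only 7 were tested, whereas the shares of all genes here and below are of the 12154 tested. In shBruce MEFs, Rgs16 and Rgs19 fell and Rgs2 and Rgs12 rose, 4 of the 9 members, where 12.4% of all genes were called higher and 10.6% lower. The interaction of line and medium was called for 0 of the 9 members, as for 0% of all genes, so a call in 1 line and not in the other was not shown to be a difference between the lines. At an unadjusted p under 0.05, the interaction held 1 member, Rgs10, and 474 of the 12154 genes, and the Wald test of DESeq2 and limma-voom each called 0 genes.

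Among the R4 members, Rgs16, which acts on both Gi and Gq and whose protein is a substrate of the cysteine branch of the N-degron pathway, moved most. Its normalized counts in shRenilla were 576, 635 and 596 in FM and 39.9, 49.3 and 43.8 in Starv. In shBruce they were 596, 627 and 362 in FM and 14.1, 33.1 and 20.4 in Starv. Every starved library was far below every FM library of either line, and the FM libraries of the lines overlapped. Rgs16 was 13.6-fold lower after starvation in shRenilla (95% confidence interval 9.39 to 19.6, adjusted p = 8.4e-07, edgeR) and 22.3-fold lower in shBruce (14.8 to 33.6, adjusted p = 3.5e-07). It took rank 3 from the lowest of the 12154 log2 fold changes in both lines. An exact permutation test gave p = 0.1, the smallest that 3 libraries against 3 allow. The log2 fold change stayed between -3.85 and -3.68 in shRenilla and between -4.86 and -4.32 in shBruce over the 21 alternative settings that could give it. Of its annotated exon bases, 10.1% are shared with an antisense gene, Gm28513, which the table does not list, and the strand setting of the counting is not given in the sources used here.

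Rgs2, an R4 member that prefers Gq, had far lower counts. Its normalized counts in shBruce were 32.9, 36.6 and 34.7 in FM and 56.5, 42.7 and 111.5 in Starv. All 3 starved libraries were above the FM libraries, and replicate 3 stood well above the other two. The rise was 1.04 ± 0.31 on the log2 scale (SE, adjusted p = 0.0281, edgeR). Without shBruce Starv replicate 3 it was 0.48 and no longer passed (adjusted p = 0.139). In shRenilla, Rgs2 had 44.9 to 47.5 normalized counts in FM and 46.3, 56.2 and 67.6 in Starv, which overlapped, with a log2 fold change of 0.30 ± 0.30 (SE, adjusted p = 0.522). Rgs3, an R4 member whose longer forms carry further domains, had 52.2, 36.8 and 39.4 normalized counts in shRenilla FM and 22.3, 27.7 and 27.6 in Starv, and in shBruce 51.0, 50.2 and 39.7 in FM and 30.3, 37.3 and 21.4 in Starv. The starved libraries lay below the FM libraries in both lines. With 15 to 64 reads per library behind these values, the log2 fold changes of -0.73 ± 0.25 (SE, adjusted p = 0.0588) and -0.67 ± 0.26 (adjusted p = 0.0757) did not pass.

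**Figure D2:**
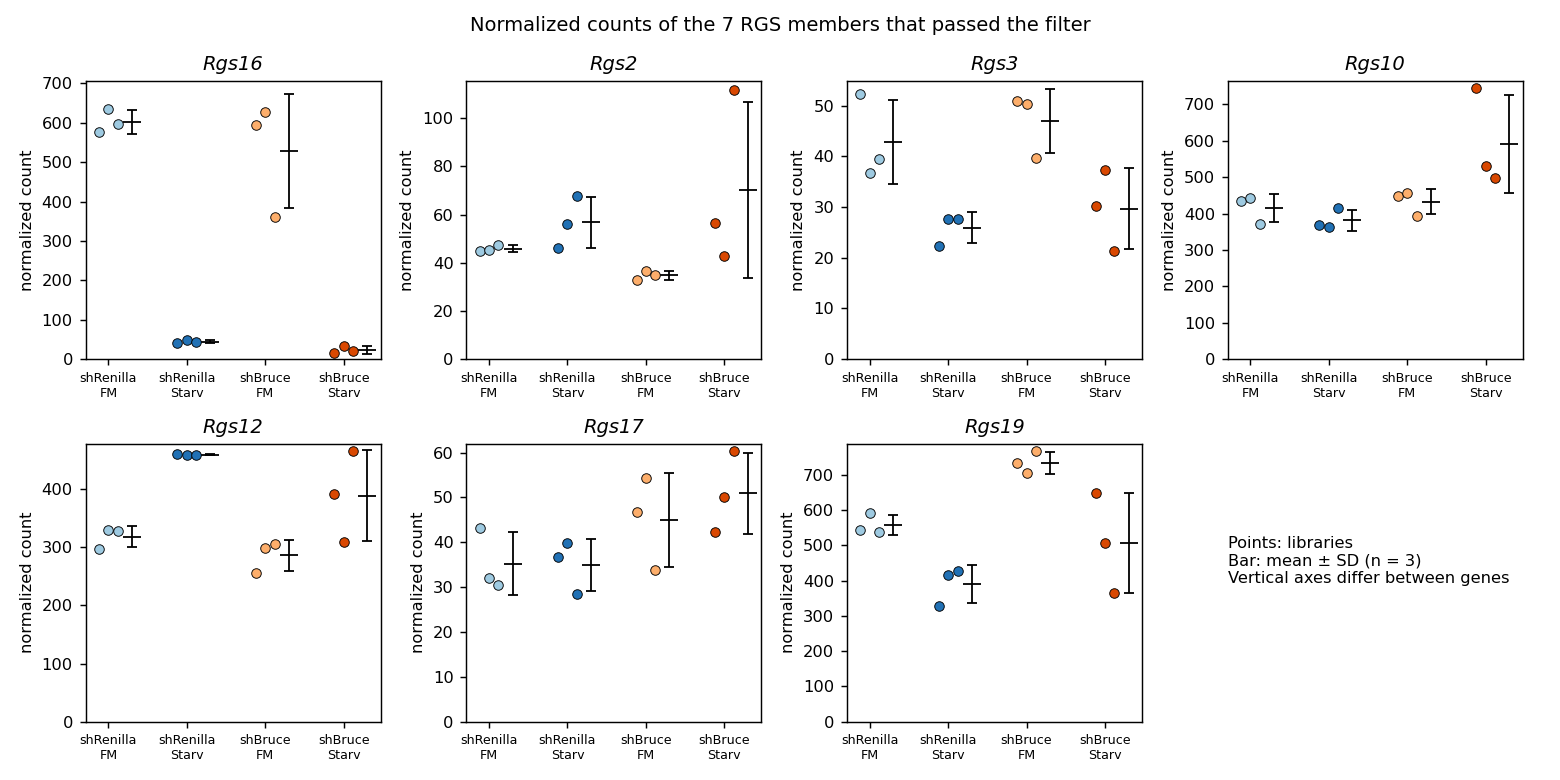
Points give the normalized count (vertical axis, scaled for each gene) of the 7 members that passed the filter in each library, for shRenilla and shBruce in FM and Starv, with the mean and SD of 3 libraries beside them. Rgs16 drops from 362 to 635 in the 6 FM libraries to 14.1 to 49.3 in the 6 Starv libraries, and the Rgs2 mean in shBruce Starv is drawn up by 1 library at 111.5.

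Rgs12, a large R12 protein that binds both activated Ras and inactive Gi alpha subunits, had 297, 329 and 328 normalized counts in shRenilla FM and 460, 458 and 458 in Starv. In shBruce it had 255, 298 and 305 in FM and 392, 308 and 465 in Starv. The groups did not overlap in either line, although the lowest shBruce Starv library was close to the highest FM library. The rise was 0.53 ± 0.15 on the log2 scale in shRenilla (SE, adjusted p = 0.0268, edgeR) and 0.44 ± 0.15 in shBruce (adjusted p = 0.0496). In shBruce the adjusted p stayed under 0.05 in only 6 of the 22 alternatives, and in shRenilla in 15. None of these 15 left out a shRenilla library. Without any 1 of the 6 shRenilla libraries the call in shRenilla was lost (adjusted p = 0.065 to 0.11, edgeR). Rgs12 shares 5.50% of its exon bases with an antisense gene, Gm43791, which is not in the table.

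Rgs10, a small R12 member active on Gi that is best known from immune cells, had 433, 443 and 371 normalized counts in shRenilla FM and 368, 362 and 414 in Starv, which overlapped. Its log2 fold change there was -0.13 ± 0.16 (SE, adjusted p = 0.620). In shBruce it had 449, 458 and 393 in FM and 745, 530 and 498 in Starv, which did not overlap, with a log2 fold change of 0.44 ± 0.16 (adjusted p = 0.0600). The interaction of line and medium for Rgs10 was 0.57 on the log2 scale, with an unadjusted p = 0.0240 and an adjusted p = 0.806 (edgeR). With length and GC trends removed, it was 0.29 and the change of Rgs10 in shBruce was 0.27, and without shBruce Starv replicate 1 they were 0.35 and 0.23. In the interaction the fifth of genes with the shortest transcripts, which holds Rgs10, had a median of 0.23. For Rgs16 the interaction was -0.72 (unadjusted p = 0.0691) and for Rgs2 it was 0.74 (unadjusted p = 0.108), both also at an adjusted p = 0.806.

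Of the RZ members, Rgs19, which acts on Gi3 and its relatives and is found on membranes of the secretory pathway, was among the highest. It had 545, 591 and 539 normalized counts in shRenilla FM and 327, 417 and 427 in Starv, and in shBruce 733, 705 and 767 in FM and 650, 508 and 364 in Starv. Starved libraries lay below FM libraries of the same line throughout. The log2 fold change was -0.52 ± 0.18 in shRenilla (SE, adjusted p = 0.0651, edgeR) and -0.54 ± 0.18 in shBruce (adjusted p = 0.0442). The sizes were close in this fit, although only the value in shBruce passed. It did so in 8 of 22 alternatives, and the value in shRenilla passed in 6. With length and GC trends removed, Rgs19 was at -0.47 in shRenilla (adjusted p = 0.0177, edgeR) and -0.72 in shBruce (adjusted p = 0.00128). Without shBruce Starv replicate 3 the fall in shBruce was -0.35 (adjusted p = 0.0808), and without replicate 1 it was -0.77 (adjusted p = 0.00390). Rgs17, an RZ member that acts on Gi and Gz, had 28.6 to 43.3 normalized counts in shRenilla and 33.7 to 60.4 in shBruce, and FM and Starv overlapped in both lines. Its log2 fold changes after starvation were -0.01 ± 0.25 (SE, adjusted p = 0.983) and 0.21 ± 0.25 (adjusted p = 0.576).

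**Figure D3:**
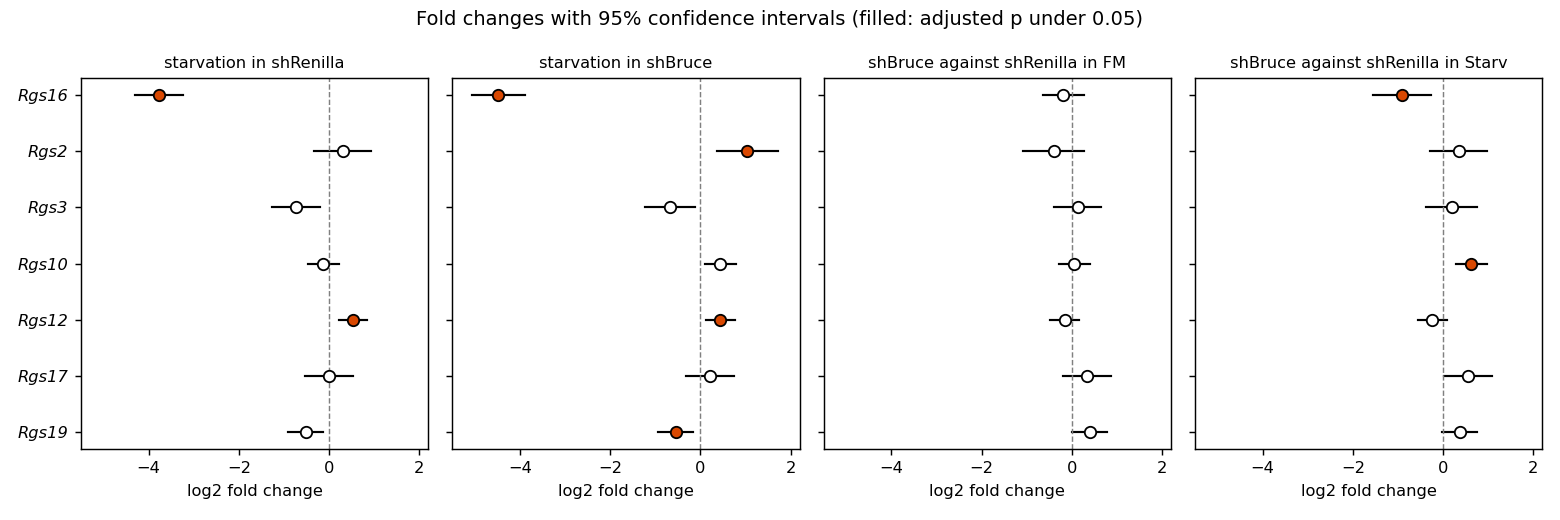
Points give the log2 fold change of the 7 members that passed the filter (horizontal axis) in 4 comparisons, lines the 95% confidence interval from the edgeR fit, and filled points an adjusted p under 0.05. Rgs16 stands apart at -3.76 and -4.48 in the starvation comparisons, while the other members lie between -0.73 and 1.04 there.

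The next question was whether the lines differed within a medium. In FM, 0 of the 9 members passed, as 0% of all genes did in this comparison (edgeR). At an unadjusted p under 0.05 there was 1 member, Rgs19, and 1750 of the 12154 genes, and limma-voom called 0 genes and DESeq2 called 26 higher and 50 lower, none of them a member. Rgs19 was higher in each of the 3 shBruce FM libraries than in any shRenilla FM library, by 0.40 ± 0.18 on the log2 scale (SE, adjusted p = 0.336). In a fit of the 6 FM libraries alone its adjusted p was 0.0490, and 221 of 11680 genes were called higher and 376 lower. With length and GC trends removed, Rgs19 was at 0.23 (adjusted p = 0.516). The fifth of genes with the shortest transcripts, which holds Rgs19, had a median of 0.21 in this comparison. Rgs2 had a log2 fold change of -0.40 ± 0.31 (adjusted p = 0.520), with shBruce FM libraries all below shRenilla FM libraries. Rgs16 was at -0.19 in FM, with a 95% confidence interval from -0.64 to 0.26 on the log2 scale.

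In Starv, Rgs10 was higher and Rgs16 lower in shBruce, 2 of the 9 members, where 12.8% of all genes were called higher and 11.2% lower. Rgs10 differed by 0.63 ± 0.16 on the log2 scale (SE, adjusted p = 0.0244, edgeR), and its 3 shBruce Starv libraries, at 498 to 745, were above the shRenilla Starv libraries at 362 to 414. Rgs16 in shBruce was at 53.3% of its level in shRenilla (95% confidence interval of the ratio 0.342 to 0.831, adjusted p = 0.0431), with 7, 31 and 22 reads in the shBruce Starv libraries and 50, 57 and 46 in the shRenilla Starv libraries. Rgs17, at 0.56 ± 0.25 (adjusted p = 0.107), and Rgs19, at 0.37 ± 0.18 (adjusted p = 0.142), did not pass. Neither did Rgs2 at 0.34 ± 0.29 (adjusted p = 0.399), Rgs3 at 0.19 ± 0.27 (adjusted p = 0.617) or Rgs12 at -0.24 ± 0.15 (adjusted p = 0.240). Without shBruce Starv replicate 3, Rgs12 was at -0.40 (adjusted p = 0.0287) and Rgs19 at 0.56 (adjusted p = 0.00760), which both passed, and Rgs2 turned to -0.22 (adjusted p = 0.439).

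Over all genes, the differences between the starved lines moved with transcript length. In this comparison the fifth of genes with the shortest transcripts had a median log2 fold change of 0.43 and the fifth with the longest -0.39. Rgs10 has a longest transcript of 880 bases, Rgs19 of 1511 and Rgs16 of 2339, against 8191 for Rgs17. With each library's trends against length and GC content removed, Rgs10 was at 0.17 (adjusted p = 0.297) and no longer passed, and Rgs19 was at -0.02. Rgs17 was then at 1.17 and passed (adjusted p = 0.0323), and Rgs16 was at -1.12 (adjusted p = 0.0412). In a fit of the 6 Starv libraries alone, neither Rgs10 (adjusted p = 0.117) nor Rgs16 (adjusted p = 0.119) passed, and 0 of all genes did, with 3662 at an unadjusted p under 0.05 (edgeR). Without shBruce Starv replicate 1, the library with the lowest total, Rgs10 was at 0.42 (adjusted p = 0.0611) and Rgs16 at -0.75 (adjusted p = 0.115), and without replicate 3 Rgs16 was at -0.78 (adjusted p = 0.0892). Leaving out shRenilla Starv replicate 1 or 2 left 0 genes called, with 3495 and 3409 at an unadjusted p under 0.05.

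**Figure D4:**
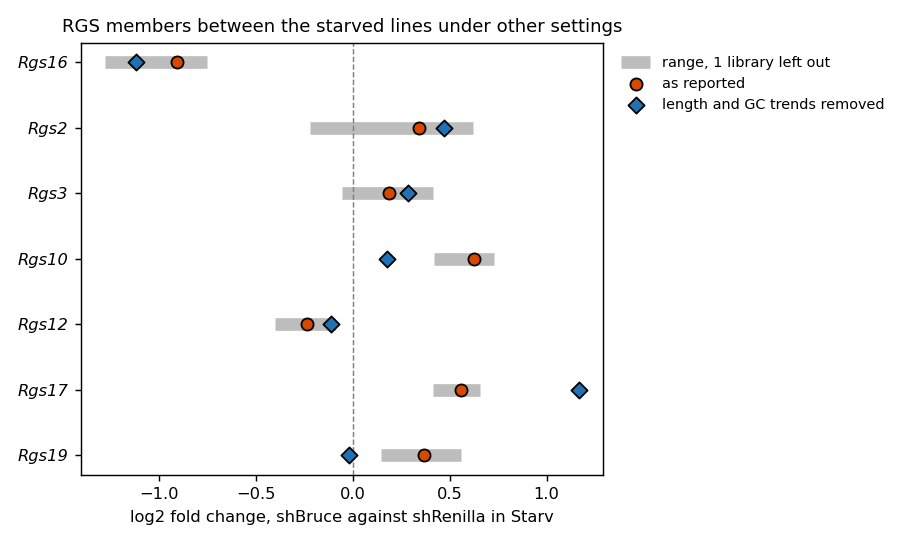
Circles give the log2 fold change of shBruce against shRenilla in Starv (horizontal axis) for the 7 members that passed the filter, diamonds the value after length and GC trends were removed, and grey bars the range when 1 of the 12 libraries was left out. Rgs10 moves from 0.63 to 0.17, Rgs17 from 0.56 to 1.17 and Rgs19 from 0.37 to -0.02, all outside their grey bars. Rgs16 stays negative throughout.

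The table held 12 further RGS genes. Rgs20, an RZ member, had 17 to 48 counts per library, against 15 to 64 for Rgs3, and was not among the chosen members. It had 41.1 ± 4.53 normalized counts in shRenilla FM and 23.4 ± 3.72 in Starv (SD, n = 3), and 45.1 ± 4.56 and 33.0 ± 1.37 in shBruce. Rgs20 fell in shRenilla (log2 fold change -0.80 ± 0.20, SE, adjusted p = 0.0167, edgeR), and in shBruce its log2 fold change was -0.46 ± 0.21 (adjusted p = 0.129). Rgs9, an R7 member of the nervous system and retina, passed the filter with 1 to 17 counts per library and no adjusted p under 0.05. Rgs5, Rgs7, Rgs8, Rgs11 and Rgs22 had 1 or more counts but did not pass the filter. Rgs1, Rgs6, Rgs13, Rgs18 and Rgs21 had 0 counts in all 12 libraries, which allows up to 0.0168 CPM over the 178822694 reads, for counting error only. Of the 21 family genes, 11 lie on chromosome 1, and of these 3 passed the filter, Rgs2, Rgs16 and Rgs20, and 4 were at 0.

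The pathway around the RGS proteins was described by lists written from general knowledge, with earlier results of these data known. Their counts are a description and not independent evidence. They stand beside 9.69% of all genes called higher and 7.27% lower in shRenilla and 12.4% and 10.6% in shBruce. Of 20 G protein-coupled receptors that passed the filter, 3 rose and 8 fell in each line after starvation, with a median log2 fold change of -0.47 in shRenilla and -0.36 in shBruce, against -0.01 and 0.02 over all genes. The lysophosphatidic acid receptors Lpar2 (1.11 and 1.17) and Lpar4 (1.23 and 1.65) rose in both lines on the log2 scale. Lpar6, of the same receptor group, went the other way. Its mean normalized counts went from 357.9 in FM to 152.2 in Starv in shRenilla and from 305.4 to 102.5 in shBruce. The sphingosine 1-phosphate receptor S1pr3 (-1.67 and -1.78), the bradykinin receptor Bdkrb2 (-1.97 and -3.34) and the prostaglandin E2 receptor Ptger4 (-2.25 and -2.35) fell in both, as Rgs16 did. Bdkrb2 and Ptger4 had low counts, with means of 21.3 and 30.7 normalized counts in shBruce FM and 2.00 and 5.73 in shBruce Starv. Of 11 G protein alpha subunits, Gna13 rose in shRenilla (0.56, adjusted p = 0.0322, edgeR), and in shBruce Gnal rose (2.67, adjusted p = 4.3e-04) and Gna12 fell (-0.83, adjusted p = 0.0230). Gnal had low counts, with means of 3.43 normalized counts in shBruce FM and 22.15 in Starv, and of 9.82 and 17.4 in shRenilla. Of 12 beta and gamma subunits, 0 passed in shRenilla, where 0 also had an unadjusted p under 0.05, and in shBruce 2 rose and 1 fell. Gnb5, the partner of R7 members, was among those that rose (0.40, adjusted p = 0.0469), a call that held in 6 of 22 alternatives. Gng4 rose more (2.39, adjusted p = 0.00725), from a mean of 4.19 normalized counts to 22.9, and Gnb1 fell (-0.36, adjusted p = 0.0277). Of 13 other proteins with an RGS-like domain, 2 fell in shRenilla and 5 in shBruce and 0 rose, against the same shares of all genes, and Grk6, a receptor kinase, fell in both (-0.45 and -0.67). Of 7 adenylyl cyclases and phospholipase C beta enzymes, 0 passed in shRenilla, with 3 at an unadjusted p under 0.05, and 3 fell in shBruce, Adcy7 most (-1.08, adjusted p = 7.7e-05).

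Of 8 cAMP-responsive genes, the phosphodiesterase gene Pde4b rose after starvation (1.40 and 1.16) and the nuclear receptor gene Nr4a1 fell (-2.49 and -2.71) in both lines, and Sik1 (-0.51) and Per1 (-0.43) fell in shBruce without passing in shRenilla. Of 7 N-degron enzymes, which include those that act on Rgs4 and Rgs16 protein, Ado, the cysteamine dioxygenase that oxidizes their N-terminal cysteine, fell by 0.36 in shRenilla (adjusted p = 0.0344, edgeR) and by 0.49 in shBruce (adjusted p = 0.00593). Between the starved lines, Ubr1, a ubiquitin ligase of this pathway, was lower in shBruce (-0.87, adjusted p = 0.0225), as were 4 of the 13 proteins with an RGS-like domain and Adcy7 (-0.64, adjusted p = 0.0225). In that comparison, where 12.8% of all genes were called higher and 11.2% lower, 3 of 11 alpha subunits, 2 of 12 beta and gamma subunits and 3 of 20 receptors also passed. The calls of Ubr1 held in 15 of 22 alternatives and of Adcy7 in 16. Among the proteins with an RGS-like domain, that of Snx13 held in 16, of Akap10 in 15 and of Arhgef11 in 7. The calls of Gnai2 held in 7 of 22 alternatives, of Gng12 in 8 and of the receptors Ptger1 and Lpar6 in 6 each. As given above, the differences in this comparison moved with transcript length over all genes. Of the 8 cAMP-responsive genes 0 passed, with 0 at an unadjusted p under 0.05. Between the lines in FM, and for the interaction, 0 genes of these lists passed, with 0 to 4 genes of a list at an unadjusted p under 0.05 in FM and 0 to 1 for the interaction (edgeR).

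The genes whose log2 levels ran most like those of Rgs16 over the 12 libraries were Ccrn4l, the deadenylase-like protein Nocturnin (Pearson r = 0.992), Plau, the urokinase gene (0.992), and Thbs1, the gene of thrombospondin 1 (0.990). Their mean normalized counts went from 3369 to 1145, from 1020 to 386 and from 36097 to 9854 in shRenilla, from FM to Starv. For Rgs3, the member with the next largest mean change, they were Sat1 (0.962), Snora68 (0.958) and Enoph1 (0.952). The libraries fall into FM and Starv groups, and these r values describe that shared split and the shared libraries.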

How the data were processed

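The 4 groups (shRenilla and shBruce#1 MEFs, each fed or starved for 2 h) had 3 RNA-Seq libraries each. The authors made poly(A) libraries, read 50 bases from 1 end, discarded rRNA reads, mapped the rest to mm10 with STAR 2.4.0d and deposited raw counts per gene made with HTSeq 0.5.4p3. The annotation and strand setting are not given in the sources used here. Of the table's 24062 symbols, 27 had become dates (0.296% of counts) and 2 were repeated, none an RGS gene. Total counts were 7717265 to 18510540 per library.

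The model was edgeR 4.0.16 under R 4.3.3 (TMM, filterByExpr, 12154 genes, 1 joint fit of 4 group means, quasi-likelihood test, two-sided, Benjamini-Hochberg over all genes, level 0.05), which was tested on simulated data. A normalized count is the raw count over the relative effective size of its library. Transcript lengths came from GENCODE M21 on GRCm38. The 22 alternatives used DESeq2 1.42.0, limma 3.58.1, other normalizations and filters, only the groups compared, a replicate block, length and GC trends removed (spline, 4 degrees of freedom) or 1 library left out. Exact permutation tests were two-sided. Likeness used log2 of the normalized count plus 0.5. Python 3.11.15 made the tables.

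The members, gene lists and settings were chosen with earlier results of these data known. The rule named all 9 members, Birc6, RGS genes with any count, up to 3 rising and 3 falling called genes of each list per comparison, and the 3 genes most like the 2 members with the largest mean change. Some called genes of the lists that the rule covers are left out of the text.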

Additional observations from a re-analysis of the deposited data

How the results depend on the processing

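Over the alternatives, 655 of the 758 member values kept their direction and their side of the threshold, 63 lost a call and 18 gained one. A further 22, none past the threshold in either fit, changed sign. Only a value called as reported can lose a call, and most values were not called, so 655 does not measure the stability of calls. The rise of Rgs2 in shBruce passed in 16 of 22 alternatives and that of Rgs12 in 6, against 15 for Rgs12 in shRenilla, none of which left out a shRenilla library. The fall of Rgs19 in shBruce passed in 8 of 22, and that in shRenilla, not called as reported, in 6. Between the starved lines, Rgs10 passed in 15 of 22 and Rgs16 in 8 of 21. The fall of Rgs16 after starvation passed in both lines in every alternative that could give it. With at least 10 counts in every library Rgs16 was dropped, since it had 7 counts in 1 library. The number of members called after starvation in shRenilla, 2 as reported, was 1 with no filter on low counts, 1 with at least 10 counts in every library, 4 in a fit of only the groups compared, and 1 to 4 with 1 library left out. There it was 3 with the Wald test of DESeq2 and 3 with length and GC trends removed, with or without the replicate block. In shBruce it was 4 as reported, 2 with at least 10 counts in every library, 2 with limma-voom, 1 in a fit of only the groups compared, 2 with the replicate block, and 1 to 4 with 1 library left out. The Wald test of DESeq2 called these 4 and also Rgs10 (adjusted p = 0.0481) in shBruce. Between the lines in FM it was 0 as reported and 1, Rgs19, in a fit of only the groups compared, and 0 with 1 library left out. Between the lines in Starv it was 2 as reported, 1 with at least 10 counts in every library, 1 with limma-voom, 0 in a fit of only the groups compared, 0 with length and GC trends removed with replicate block, and 0 to 3 with 1 library left out. Over all genes, fits of only the groups compared called 2681 of 11954 higher and 2332 lower in shRenilla. In shBruce they called 552 of 11787 higher and 404 lower. Between the lines they called 221 of 11680 higher and 376 lower in FM, and 0 in Starv. With at least 10 counts in every library, 1092 of 10926 were called higher and 816 lower in shRenilla. In shBruce this filter gave 1362 and 1176. The cause of these changes was not tested.

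No pairing of the libraries by replicate number was seen: deviations from the group means correlated at -0.456 to 0.347 for 18 same-number pairs and at -0.379 to 0.509 for other pairs. Deviations from a mean of 3 libraries depend on each other, so these ranges cannot exclude a pairing. Over all genes, the number called after starvation was 2061 in shRenilla and 1149 to 5013 over the alternatives, and 2790 in shBruce and 956 to 4009. It was 0 between the lines in FM and up to 597, and 2907 in Starv and 0 to 5735, with 1932 for the replicate block. With 1 library left out it was 1149 to 3212 in shRenilla, 1855 to 4009 in shBruce and 0 to 32 in FM. Upper-quartile normalization moved the median of all genes in shBruce to 0.11 and the calls there to 1991 higher and 933 lower, and in shRenilla to 1588 higher and 641 lower. Counts of 15 to 65 per library limit Rgs3 and Rgs17. With no filter on low counts, Rgs4 and Rgs14 were tested and passed in 0 comparisons, with adjusted p-values of at least 0.744 (edgeR).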
